A study of Mus musculus with 4 samples.

Results

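The type I interferon antiviral effector genes described here are Isg15, Usp18, Ifit1, Ifit2, Ifit3, Ifi27l2a, Irf7, Oas1a and Oasl2. They were taken by name, 9 genes of the 55421 listed in each library and of the 14492 that had at least 1 CPM (counts scaled to a common library size) in at least 2 libraries. The choice was made with earlier results of these data known, so counts of the 9 beside all genes describe and do not test. All 9 had at least 1 CPM in every library, so none passed this filter through 1 group only. RNA was sequenced from lysates of frozen uterine tissue of 2 WT and 2 Qa-2- mice in late pregnancy at E18.5. There was 1 mRNA library per mouse, and no agent was given. The paper gives a weight of tissue for the isolation but not the part of the uterus that it came from. WT mice were C57BL/6J and carried Qa-2, a non-classical MHC class I molecule. Qa-2- mice were B6.K1 (B6.Cg-H2b3/FlaCmwJ), a congenic line that arose spontaneously from crosses between other congenic strains and lacks the genes for Qa-2. Each strain was mated with its own kind, and other differences between the strains cannot be told apart from the lack of Qa-2. The question of the comparison was which uterine transcripts differ when Qa-2 is missing.

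Type I interferons bind the receptor chains IFNAR1 and IFNAR2, the kinases JAK1 and TYK2 then activate the transcription factor complex ISGF3, which binds interferon-stimulated response elements in promoters. The induced genes include RNA-binding Ifit proteins, oligoadenylate synthetases that start RNA decay, the ubiquitin-like modifier ISG15, and regulators that amplify the response (IRF7) or end it (USP18). In the female reproductive tract the epithelium makes its own type I interferon, interferon epsilon, without infection.

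The promoter stretches that hold a core of the response element are shown because ISGF3 acts through this element. The core was searched as GAAANNGAAA, or TTTCNNTTTC on the other strand, in RefSeq windows from 250 bases before to 50 bases after each gene's start (GRCm38.p6), and overlapping matches were counted separately. Of the 9 genes, 7 had a window, and 4 of the 7 (57.1%) held a core. Over all genes with a window the share was 3.99% (1079 of 27025). Capitals mark the matches, and each stretch is written 5′ to 3′ in the direction of its gene. It lies on chr4:156200855-156200916 (minus strand) for Isg15, chr5:120907510-120907565 (minus strand) for Oas1a, chr19:34583353-34583436 (plus strand) for Ifit3 and chr19:34640765-34640833 (plus strand) for Ifit1.
Isg15: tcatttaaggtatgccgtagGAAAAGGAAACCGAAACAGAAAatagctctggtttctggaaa
Oas1a: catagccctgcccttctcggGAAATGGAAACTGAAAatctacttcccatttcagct
Ifit3: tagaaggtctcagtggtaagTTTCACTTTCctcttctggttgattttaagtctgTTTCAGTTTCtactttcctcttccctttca
Ifit1: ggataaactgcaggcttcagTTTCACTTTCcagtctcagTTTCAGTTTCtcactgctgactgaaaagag

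In Isg15, 3 overlapping cores formed 1 run of GAAA repeats that began 78 bases before the start. The run of 2 cores in Oas1a began 20 bases before the start, and the stretch reaches into the first bases of the annotated gene. In Ifit3 and Ifit1 each promoter held 2 separate cores on the other strand, with the same letters at both positions, TTTCACTTTC and then TTTCAGTTTC. No match was found in the windows of Ifit2, Irf7 and Oasl2, and Usp18 and Ifi27l2a had no window. A match is a description of letters and was not tested for binding. The share was 66.7% (6 of 9) in paralogs of the 9 genes, 64.7% (11 of 17) in type I interferon ligands, 40% (4 of 10) in the interferon gamma axis, 33.3% (2 of 6) in brakes on the response and 29.4% (10 of 34) in other interferon-stimulated effectors. It was 25% (3 of 12) in sensors and adaptors, 16.7% (1 of 6) in the receptor list and 0% (0 of 3) in the type III list.

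The log2 fold changes, WT over Qa-2-, were above 0 for all 9 genes, with a median of 1.04 and a range of 0.22 to 1.42, whereas the median over all 14492 genes was 0.01. Ifit1, Ifit2, Ifit3, Isg15 and Ifi27l2a were each more than 2 times as high in WT uteri, Usp18 and Irf7 differed less, and Oas1a and Oasl2 differed by 1.26 and 1.17 times. Summed over the 9 genes, the level was 390 and 326 CPM in the WT libraries and 176 and 184 CPM in the Qa-2- libraries. No gene of the 9 passed an adjusted p of 0.05 (quasi-likelihood test of edgeR, Benjamini-Hochberg method over all genes), and no gene of all tested did (0%), the smallest adjusted p of any gene being 0.17. At an unadjusted p under 0.05, 6 of the 9 were higher in WT, beside 8.09% of all genes, and none was higher in Qa-2-, beside 7.09%. DESeq2, run as an alternative, called 5 of the 9 (Isg15, Ifit1, Ifit2, Ifit3 and Ifi27l2a) higher in WT, beside 2.79% of all genes. Both WT libraries lay above both Qa-2- libraries for 7 of the 9, beside 25.4% of all genes, and the opposite order, seen in 24.5% of all genes, was found for none of the 9. With 2 animals against 2, an exact two-sided permutation test of a single gene cannot go below p = 0.33. In whole tissue, a lower level can come from fewer cells that express a gene or from less RNA per cell, and these cannot be told apart.

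**Figure D1:**
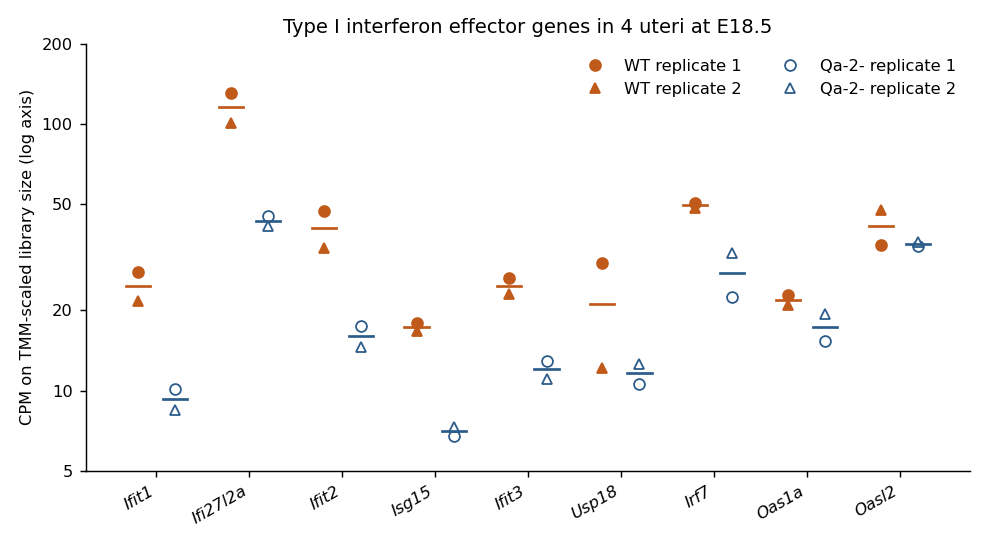
Level of each effector gene in each library, as CPM on TMM-scaled library sizes on a log axis; filled orange symbols are WT, open blue symbols Qa-2-, circles replicate 1, triangles replicate 2, and bars the group means. The groups stand apart for all genes but Usp18 and Oasl2, and Ifi27l2a is the highest gene in both groups.

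The plot of levels by library shows both groups of points for each gene, and these values are given below in CPM on library sizes scaled by TMM, first by the tetratricopeptide repeat proteins of the Ifit cluster. Ifit1 (ENSMUSG00000034459, chr19:34640871-34650009), which binds viral RNA that lacks host cap methylation, was at 27.9 and 21.7 CPM in the WT libraries and at 10.1 and 8.43 CPM in the Qa-2- libraries. The lowest WT value of Ifit1 was thus above the highest Qa-2- value, with means of 24.8 ± 4.38 and 9.27 ± 1.19 CPM (SD, n = 2 each). Its log2 fold change was 1.42 ± 0.22 (SE), with an edgeR adjusted p of 0.246 and a DESeq2 adjusted p of 0.000224. Ifit2 (ENSMUSG00000045932, chr19:34550694-34576419), an RNA-binding protein of the same family, was at 47.2 and 34.3 CPM in WT and at 17.5 and 14.6 CPM in Qa-2- uteri. The groups of Ifit2 did not overlap, and its log2 fold change was 1.35 ± 0.22 (edgeR adjusted p = 0.246). Ifit3 (ENSMUSG00000074896, chr19:34583531-34588731), a further Ifit protein, was at 26.4 and 23.1 CPM in WT and at 12.9 and 11.1 CPM in Qa-2- uteri. Its log2 fold change was below those of its neighbours in the cluster, 1.04 ± 0.19 (edgeR adjusted p = 0.246), and again without overlap. All 3 Ifit genes lie within 1 stretch of chromosome 19 and had the same order of libraries, WT replicate 1, WT replicate 2, Qa-2- replicate 1 and Qa-2- replicate 2 from high to low.

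Isg15 and Usp18 encode the modifier of the ISGylation system and its main deconjugating protease. Isg15 (ENSMUSG00000035692, chr4:156199455-156200796) was at 18 and 16.7 CPM in WT libraries and at 6.73 and 7.32 CPM in Qa-2- libraries, from 631 to 721 and 239 to 256 counts. The animals of a group differed little, with means of 17.3 ± 0.872 and 7.03 ± 0.414 CPM (SD, n = 2 each), a ratio of 2.47 and a log2 fold change of 1.30 ± 0.20 (edgeR adjusted p = 0.246). Usp18 (ENSMUSG00000030107, chr6:121245906-121270917), which also blocks the receptor chain IFNAR2 and so ends the response, was at 30.2 and 12.2 CPM in WT and at 10.6 and 12.6 CPM in Qa-2- uteri. Here 1 WT library was high and the other lay between the Qa-2- values. The log2 fold change of Usp18 of 0.87 ± 0.45 (edgeR adjusted p = 0.411) went to 0.04 without WT replicate 1 and to 1.38 without WT replicate 2. Prf1, a perforin gene of NK cells, was also high in that library, with 3140 counts in WT replicate 1 and 90 in WT replicate 2, and 47 and 159 in the Qa-2- libraries. The 5 NK cell markers together summed to 107 and 6.44 CPM in WT and to 4.65 and 12.9 CPM in Qa-2- uteri, mostly from Prf1 and Gzmb. The receptor markers Ncr1 and Klrb1c were instead lowest in WT replicate 1, at 0.224 and 0.448 CPM. The part of NK cells in the Usp18 value was not tested.

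Ifi27l2a (ENSMUSG00000079017, chr12:103442167-103443680), a small hydrophobic interferon-induced protein, had the highest level of the 9 genes. Its values were 131 and 101 CPM in WT libraries and 45.2 and 41.3 CPM in Qa-2- libraries, from 3799 to 5275 and 1444 to 1603 counts. The groups did not overlap, with means of 116 ± 21.7 and 43.2 ± 2.74 CPM (SD, n = 2 each). Its log2 fold change of 1.42 ± 0.19 had the smallest unadjusted p of the 9 genes, 0.000629 in edgeR's quasi-likelihood test (adjusted p = 0.246), and a DESeq2 adjusted p of 1.01e-05. Irf7 (ENSMUSG00000025498, chr7:141262706-141266481), the transcription factor that amplifies type I interferon production, was at 50.8 and 48.4 CPM in WT and at 22.4 and 32.8 CPM in Qa-2- uteri. For Irf7 the Qa-2- animals differed more from each other than the WT animals did, and the groups did not overlap (0.85 ± 0.22, edgeR adjusted p = 0.271, DESeq2 adjusted p = 0.0664).

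The oligoadenylate synthetase genes of the group differed least. Oas1a (ENSMUSG00000052776, chr5:120896256-120907521), which makes oligoadenylates on sensing double-stranded RNA, was at 22.8 and 20.9 CPM in WT and at 15.3 and 19.4 CPM in Qa-2- uteri. The groups of Oas1a stood apart by a narrow margin, and the log2 fold change was 0.33 ± 0.20 (edgeR adjusted p = 0.464). Oasl2 (ENSMUSG00000029561, chr5:114896936-114912234), a ubiquitin-like domain protein of the same family, was at 35.2 and 47.6 CPM in WT and at 35 and 36 CPM in Qa-2- uteri. The lower WT value of Oasl2 lay between the Qa-2- values, and the log2 fold change of 0.22 ± 0.20 (edgeR adjusted p = 0.62) turned to -0.02 when WT replicate 2 was left out.

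**Figure D2:**
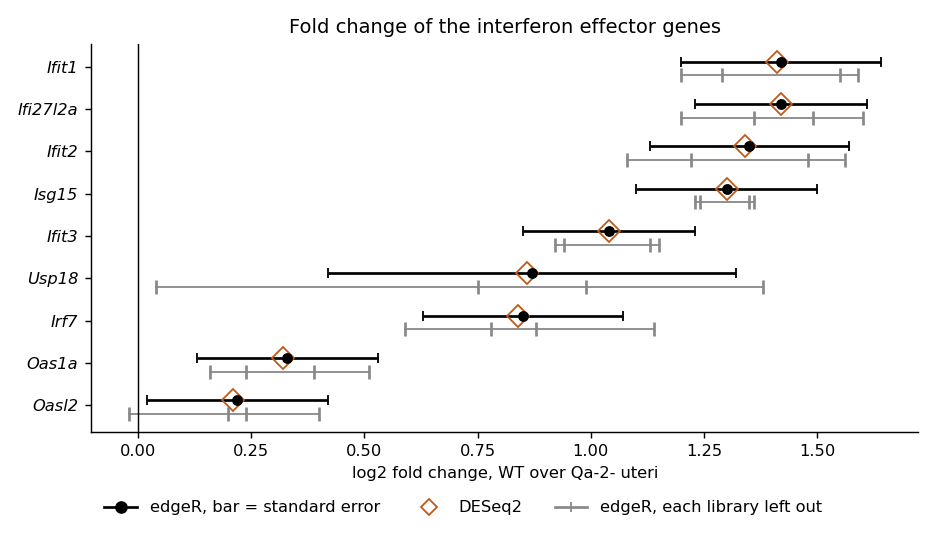
Log2 fold change of each effector gene, WT over Qa-2- uteri, from edgeR (points, bars show the standard error), from DESeq2 (diamonds) and from edgeR with each of the 4 libraries left out in turn (grey ticks). The genes Ifit1, Ifi27l2a, Ifit2, Isg15 and Ifit3 stay at 0.92 or above in all these fits, whereas Usp18 falls to 0.04 and Oasl2 to -0.02.

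The plot of fold changes shows how far each value moved with single libraries. Over 12 other settings, with other scalings, filters, pairings and each library left out, Isg15 ranged from 1.21 to 1.36 and Ifit3 from 0.92 to 1.15 on the log2 scale. The ranges were 1.20 to 1.59 for Ifit1, 1.08 to 1.56 for Ifit2 and 1.20 to 1.60 for Ifi27l2a. Irf7 lay between 0.59 and 1.14 and Oas1a between 0.16 and 0.51, whereas Usp18 and Oasl2 came to 0.04 and -0.02 without 1 WT animal each. WT replicate 1 was above WT replicate 2 for 8 of the 9 genes, all but Oasl2, while Qa-2- replicate 1 was above Qa-2- replicate 2 for 4, the Ifit genes and Ifi27l2a.

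Levels can be compared between genes only per length, and were divided by the total exon length of each gene. This total covers all annotated exons and can exceed the length of a transcript. For Irf7 it was 3776 bases, its whole span on the chromosome, so its values per kilobase may be too low. Ifi27l2a was highest in both groups, with 251 ± 46.9 CPM per kilobase in WT and 93.4 ± 5.93 in Qa-2- uteri (SD, n = 2 each). Isg15 came next with 24.7 ± 1.24 CPM per kilobase in WT and 9.99 ± 0.589 in Qa-2- uteri, separate from the next gene in WT but overlapping with Oas1a in Qa-2- uteri. In WT the order went on with Ifit3 (14.2), Irf7 (13.1), Oas1a (11.6), Ifit2 (10.4), Ifit1 (9.35), Usp18 (7.6) and Oasl2 (6.5). Of these neighbours only Irf7 and Oas1a had separate ranges. In Qa-2- uteri Oas1a (9.22) was followed by Irf7 (7.31), Ifit3 (6.88), Oasl2 (5.58), Usp18 (4.16), Ifit2 (4.08) and Ifit1 (3.49). There, Oasl2 was separate from both Ifit3 above it and Usp18 below it, and the other neighbours overlapped. Ifit1 thus ranked 7 in WT and 9 in Qa-2- uteri, and Oas1a 5 and 3.

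Of the ligands that start the pathway, Ifne was the only one above a few counts. Of 18 type I interferon genes, Ifnb1, Ifnab and every Ifna gene, together 15, had 0 counts in all 4 libraries, which allows up to 3 counts, or 0.0747 to 0.0858 CPM. Pairs with several positions were not counted, so reads that fit more than 1 of the similar Ifna genes would be missing here. Ifnk and Ifnz had at most 2 counts in a library. Ifne, the interferon epsilon of reproductive epithelium, passed the filter, with 6.5 and 4.11 CPM in WT and 4.62 and 17.6 CPM in Qa-2- libraries. Its groups overlapped and Qa-2- replicate 2 was the high library (log2 fold change -1.07 ± 0.66, edgeR adjusted p = 0.478). Without Qa-2- replicate 2 the value was 0.19. Whether the Ifne level bears on the effector genes was not tested. Of the type III interferons, Ifnl2 and Ifnl3 were at 0 counts, and their receptor chains Ifnlr1 and Il10rb had log2 fold changes of -0.52 and 0.11.

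Among the 7 genes of the receptor, its kinases and ISGF3, the median log2 fold change was 0.02. Ifnar2, the receptor chain to which USP18 binds, was at 69.4 and 70.1 CPM in WT and at 38.5 and 39.9 CPM in Qa-2- uteri. The groups were separate with little spread, and the log2 fold change was 0.83 ± 0.14 (edgeR adjusted p = 0.246, DESeq2 adjusted p = 0.00584). Ifnar1, the other chain, was at 79.5 and 70.5 CPM in WT and at 79.2 and 77.4 CPM in Qa-2- uteri and overlapped (-0.06 ± 0.15). The values were 0.05 for Stat2, 0.02 for Irf9, -0.07 for Jak1 and -0.23 for Tyk2, whose Qa-2- libraries were both above the WT libraries. None of these 7 passed the adjusted edgeR test, 1 of 7 had an unadjusted p under 0.05 and was higher in WT, beside 8.09% of all genes, and DESeq2 called 1 of 7, Ifnar2, beside 2.79%.

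**Figure D3:**
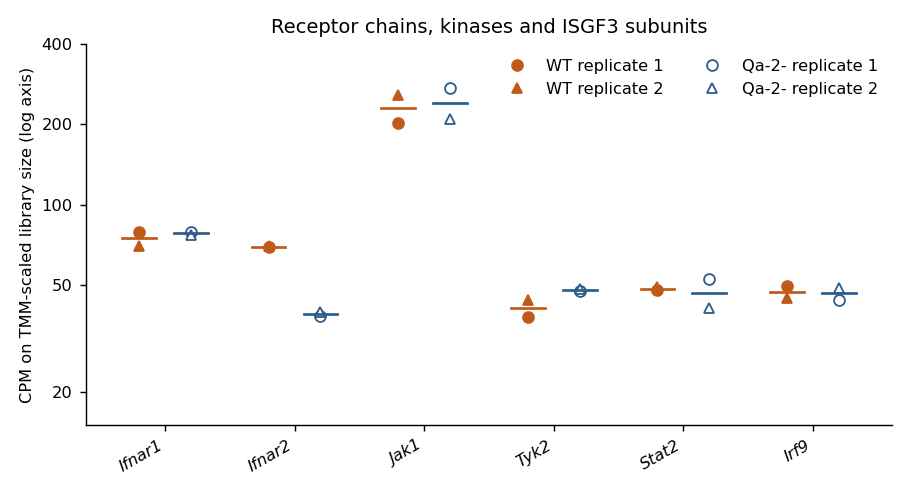
Level of 6 genes of the receptor chains, kinases and ISGF3 subunits in each library, as CPM on TMM-scaled library sizes on a log axis, with symbols and group means as in the plot of the effector genes. Ifnar2 is the gene whose WT libraries both lie above the Qa-2- libraries, and for Tyk2 the order is the opposite.

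The paralogs of the 9 genes give a comparison within the same families. Of 15 paralogs, 9 passed the filter, with a median log2 fold change of 0.50. The highest values were those of Ifi27l2b (1.53, unadjusted p = 0.0467 in edgeR), Ifit3b (1.05, unadjusted p = 0.0224 in edgeR) and Oas3 (0.66), and the lowest those of Oas1b (-0.34), Oas1c (0.02) and Oas1g (0.12). None passed the adjusted edgeR test, and 2 of 9 had an unadjusted p under 0.05 and were higher in WT, beside 8.09% of all genes. DESeq2 called none of the 9, beside 2.79% of all genes called higher in WT. The values of these 3 Oas1 genes were below the 0.33 of Oas1a, and for Oas1b both Qa-2- libraries lay above both WT libraries. Read pairs with several positions were not counted, so the split between close copies such as Ifit3 and Ifit3b, or Oas1a and Oas1g, is uncertain.

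Other interferon-stimulated effectors were taken as a list of 41 genes, of which 40 passed the filter. In 28 of them the log2 fold change was above 0 and in 12 below, with a median of 0.21, lower than that of the 9 genes. At an unadjusted p under 0.05 in edgeR, 8 of the 40 were higher in WT, beside 8.09% of all genes, and 1 was higher in Qa-2-, beside 7.09%. Both WT libraries were above both Qa-2- libraries in 20 of the 40, beside 25.4% of all genes, and the opposite order was found in 5, beside 24.5%. None passed the adjusted edgeR test. Rsad2, the radical SAM enzyme viperin, was at 13.5 and 15.3 CPM in WT and at 7.41 and 6.92 CPM in Qa-2- uteri (1.01 ± 0.21, DESeq2 adjusted p = 0.0133). Ube2l6, the conjugating enzyme for ISG15, was at 25 and 24.1 CPM in WT and at 11.4 and 15.4 CPM in Qa-2- uteri (0.88 ± 0.21, DESeq2 adjusted p = 0.0464). These 2 of 40 effectors were called by DESeq2, beside 2.79% of all genes. Samhd1, which depletes deoxynucleotides, had a log2 fold change of 0.96 ± 0.39 and was at 275 CPM in the first WT library, at 131 CPM in the other and at 117 and 90.9 CPM in Qa-2- uteri.

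The classical markers of an interferon response did not all differ in the same way. Mx1, a dynamin-like GTPase, was at 3.54 and 4.24 CPM in WT and at 2.87 and 3.95 CPM in Qa-2- uteri, and overlapped. Bst2 (tetherin) and Ifitm3, which act at membranes of the cell, had log2 fold changes of 0.57 ± 0.24 and 0.68 ± 0.25 and no overlap between groups. Among the lowest values were those of Trim25, a ubiquitin ligase of the RIG-I pathway (-0.66 ± 0.19, unadjusted p = 0.0159 in edgeR), and of Helz2 (-0.27). Trim25 was at 76.8 and 64.2 CPM in WT and at 101 and 122 CPM in Qa-2- uteri, the order opposite to that of the 9 genes.

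The sensors and adaptors that start interferon production were near 0 as a list, with a median log2 fold change of 0.04 over 16 genes. The highest were Zbp1 (0.69, unadjusted p = 0.04 in edgeR), Tlr7 (0.54) and Dhx58 (0.38), and the lowest Ikbke (-0.37), Tlr9 (-0.34) and Tlr3 (-0.33). At an unadjusted p under 0.05 in edgeR, 1 of 16 was higher in WT, beside 8.09% of all genes. Of the brakes on the response, 6 of 7 passed the filter, with a median of -0.03. Socs1, an inhibitor of JAK kinases that interferons induce, was lowest with 2.72 and 3.45 CPM in WT and 4.31 and 6.32 CPM in Qa-2- uteri (-0.79 ± 0.34, edgeR adjusted p = 0.354). Pias1 (-0.10), Socs3 (-0.09), Ptpn2 (0.04), Ptpn6 (0.13) and Irf2 (0.19) differed less, and Trex1 was listed at 0 in all libraries.

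In the interferon gamma axis, 11 of 12 genes passed the filter and the median log2 fold change was 0.30. Cxcl10, a chemokine that both interferon types induce, was at 3.49 and 2.28 CPM in WT and at 1.18 and 0.772 CPM in Qa-2- uteri (1.56 ± 0.44, unadjusted p = 0.0158 in edgeR). The GTPase genes Iigp1 (0.79 ± 0.16, DESeq2 adjusted p = 0.0319) and Igtp (0.57 ± 0.18, unadjusted p = 0.0228 in edgeR) were also separate between groups. Ifngr2 (-0.27), Ciita (-0.20) and Irf8 (-0.02) were at the lower end. At an unadjusted p under 0.05 in edgeR, 3 of 11 were higher in WT, beside 8.09% of all genes, and DESeq2 called 1 of 11, beside 2.79%. Ifng itself was below the filter with 11 counts in each WT library and 3 and 1 counts in the Qa-2- libraries. Both interferon types induce overlapping sets of genes, and these levels do not separate their shares in the 9 genes.

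**Figure D4:**
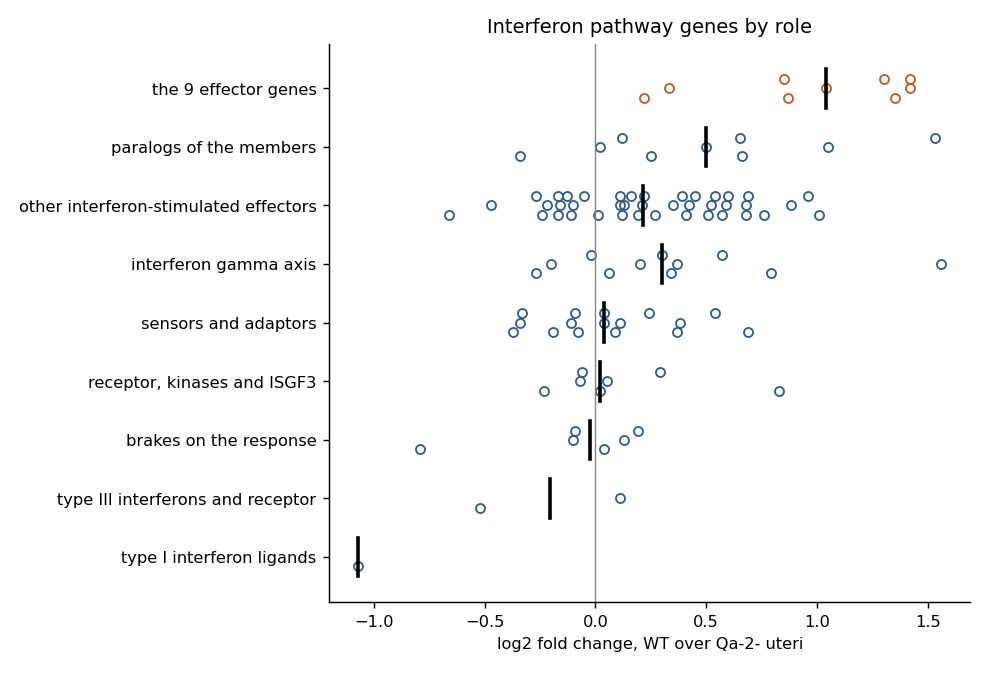
Log2 fold change, WT over Qa-2- uteri, of every gene that passed the filter in the 9 effector genes and in each pathway list; circles are genes and black bars medians. The effector genes have the highest median, 1.04, followed by their paralogs with 0.50, while the receptor list and the sensors are centred near 0.

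The plot of pathway lists places the 9 genes beside their pathway. Their median of 1.04 stood beside 0.21 for the 40 other effectors, and single genes of other lists, such as Ifnar2 at 0.83, were as far from 0 as some of the 9. The lists differ in size and level, and the difference between their medians was not tested. The 9 genes had a mean centred log2 profile of 0.62, 0.34, -0.50 and -0.46 over the WT and Qa-2- libraries. Outside the 9, the 5 genes with the most similar profile over these 4 libraries were Grap, Ccl8, Ska1, Car7 and Grip2, with root mean square differences of 0.032 to 0.065 on the log2 scale. Ccl8, a chemokine, was at 62.7 and 49.1 CPM in WT and at 30.1 and 29.6 CPM in Qa-2- uteri. Of the 14492 genes, 272 lay within 0.2 of the profile.

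Marker genes of several cell types differed between the same uteri. The 5 endothelial markers Pecam1, Cdh5, Tek, Vwf and Emcn were all higher in both WT libraries than in either Qa-2- library, an order seen in 25.4% of all genes. Their median on the log2 scale was 0.86, with summed levels of 947 and 798 CPM in WT and 415 and 402 CPM in Qa-2- uteri. Uterine epithelial markers had log2 fold changes below 0 in all 7 genes that passed the filter, of 8 (median -0.82), with sums of 2085 and 1235 CPM in WT and 2948 and 2794 CPM in Qa-2- uteri. All 5 macrophage markers had values above 0 (median 0.68), with sums of 533 and 809 CPM in WT and 562 and 367 CPM in Qa-2- uteri, so that the sums overlapped. Both WT libraries lay above both Qa-2- libraries in 3 of these 5, beside 25.4% of all genes, and the opposite order was found in 0. At an unadjusted p under 0.05 in edgeR, 2 of 5 were higher in WT, beside 8.09% of all genes. For leukocytes in general the sums were 176 and 212 CPM in WT and 159 and 156 CPM in Qa-2- uteri, with 4 of 5 genes above 0, whereas Ptprc, the pan-leukocyte gene CD45, was lower in WT (-0.33).

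Siglech, a defining marker of plasmacytoid dendritic cells, which make much type I interferon, had 36 and 32 counts in WT and 12 and 25 counts in Qa-2- libraries. The whole list of 5 such markers summed to 446 and 148 CPM in WT and to 611 and 1289 CPM in Qa-2- uteri, of which Klk1 made up nearly all. Klk1 had 5449 to 44974 counts per library, far above Siglech. Neither the sum nor the median of this list is therefore read as a level of these cells. The markers of this list that passed the filter, Klk1 (-1.70) and Ly6d (1.21), had log2 fold changes of opposite sign, and Siglech was higher in both WT libraries. Smooth muscle markers had a median of 0.91, with sums of 19864 and 34596 CPM in WT and 18464 and 9551 CPM in Qa-2- uteri. Both WT libraries lay above both Qa-2- libraries in 4 of 5 smooth muscle markers, in 3 of 3 mesothelial markers (median 3.42) and in 5 of 5 erythroid markers (median 2.41), beside 25.4% of all genes. Higher in WT at an unadjusted p under 0.05 in edgeR were 5 of 5 endothelial, 3 of 3 mesothelial and 5 of 5 erythroid markers. For smooth muscle it was 0 of 5, beside 8.09% of all genes. Of the epithelial markers, 2 of 7 were higher in Qa-2- at this level, beside 7.09%. DESeq2 called 4 endothelial, 2 mesothelial, 5 erythroid and 1 smooth muscle marker higher in WT, beside 2.79%. Summed levels were thus higher in both WT libraries for endothelium, leukocytes, smooth muscle, mesothelium and erythroid cells, as for the 9 effector genes, and lower in both for epithelium. Yolk sac markers summed to 5.66 and 43.3 CPM in WT and to 482 and 22.1 CPM in Qa-2- uteri, and trophoblast markers to at most 21.1 CPM, with Ctsq at 0. Immediate early and heat shock genes, which respond to handling, had a median of 0.28 and overlapping sums. The part of each of these cell types in the values of the 9 genes was not tested.

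**Figure D5:**
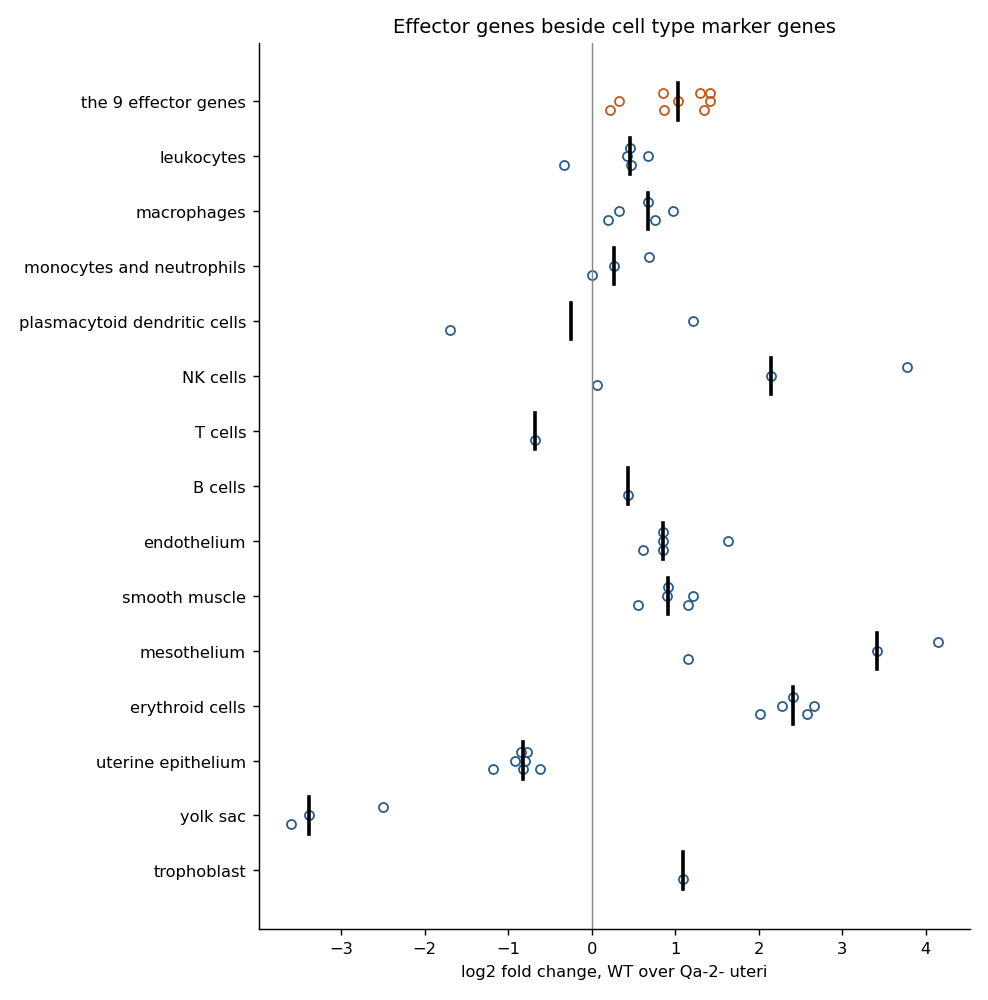
Log2 fold change, WT over Qa-2- uteri, of the 9 effector genes and of the marker genes of each cell type that passed the filter; circles are genes and black bars medians. Beside the median of 1.04 of the effector genes, those of monocytes and neutrophils (0.27), B cells (0.44, 1 gene), leukocytes (0.46), macrophages (0.68), endothelium (0.86) and smooth muscle (0.91) are lower, those of trophoblast (1.10, 1 gene), NK cells (2.15, 3 genes, of which Prf1 and Gzmb are high in WT replicate 1 alone), erythroid cells (2.41) and mesothelium (3.42) are higher, and those of plasmacytoid dendritic cells (-0.24, 2 genes of opposite direction), T cells (-0.68, 1 gene), uterine epithelium (-0.82) and yolk sac (-3.39) are below 0.

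The plot of marker lists shows these medians side by side. Uterine identity was present in all libraries, with Esr1, Pgr, Hoxa10, Hoxa11 and Oxtr summing to 804 to 970 CPM. The genes of Qa-2 followed the labels: H2-Q7 had 6318 and 1251 counts in WT and 4 and 2 counts in Qa-2- libraries, and H2-Q6 had 4204 and 1192 counts in WT and 3 in each Qa-2- library. They lie on chromosome 17, where none of the 9 effector genes lies. WT replicate 1 was the higher WT library for both, and a link between their levels and the effector genes was not tested. Total counts were 33286390 to 41041299 per library, higher in both WT libraries, and CPM removes this difference in depth.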

How the data were processed

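The values deposited by the authors are raw counts of read pairs per gene and library. The submitters' processing notes name STAR 2.7.3a, featureCounts 2.0.0 and GRCm38.p6, and per the file headers counting used strand and left out pairs with several positions or several genes. Symbols came from GENCODE M21 (55240 of 55421 identifiers matched). Genes that reached 1 CPM in 2 or more libraries were fitted with TMM and edgeR 4.0.16 (glmQLFit, glmQLFTest) in R 4.3.3, over all 14492 genes, with no covariate. DESeq2 1.42.0, other scalings, filters and each library left out were alternatives, and the crossed pairing was added after the data were seen. Scripts were tested on simulated data. The members and lists were chosen with earlier results of these data known, and the genes named are all members, the 3 highest and 3 lowest of each pathway list, the whole receptor list, Ifne, Mx1, Rsad2, Bst2 and Ifitm3. Prf1, Gzmb, Ncr1, Klrb1c, Siglech, Klk1, Ly6d, Ctsq and Ptprc were named after their values were seen. Similar profiles used log2(CPM + 0.05). Replicates of a group were not identical. They are separate mice, and no batch is labelled. Other genes for Qa-2 were not analysed here. Of the genes named by the rule, 2 are not reported here. Limits of 3 counts cover counting error only.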

Additional observations from a re-analysis of the deposited data

How the results depend on the processing

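The number of genes called, 0 in edgeR with 2199 genes at an unadjusted p under 0.05, was 700 with DESeq2 (404 higher in WT), 61 without a filter and 2 with the replicate block, and 0 to 45 with each library left out, the 45 without WT replicate 2. Of the 9 effector genes, 5 were called with DESeq2, 1 without a filter (Ifi27l2a, edgeR adjusted p = 0.0382) and none, 0 to 0, with a library left out. A group of 1 is then assumed to vary like the other. Their median was 0.95 to 1.06 over the 8 other settings and 0.92 to 1.35 with a library left out (1.35 without WT replicate 2), and Oasl2 ranged from -0.02 (reversed, without WT replicate 2) to 0.40. No call on an effector gene changed with the replicate block (smallest adjusted p = 0.376 in edgeR). Same-numbered libraries deviated in opposite directions (r = -0.37 across 14492 genes). With 2 libraries per group this is 1 comparison, which cannot decide whether the numbers pair the mice. The crossed pairing called 0 genes. With library totals alone, where the median of all genes was -0.08, the list medians were -0.08 for the receptor and ISGF3, -0.06 for sensors, 0.12 for other effectors and -0.12 for brakes. The sensors had 0.05 without a filter and 0.06 with the replicate block and with the crossed pairing, and the ligands 0.73 without a filter, which adds genes of 1 or 2 counts. With each library left out the list medians ranged from -1.73 to 0.19 for ligands, -0.47 to -0.01 for type III genes, -0.08 to 0.05 for the receptor, -0.03 to 0.04 for sensors, 0.33 to 0.63 for paralogs, 0.21 to 0.28 for other effectors, -0.07 to 0.02 for brakes and 0.10 to 0.30 for the gamma axis. The cause of these moves was not tested. Every effector gene had at least 239 counts in each library.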
